A study of Mus musculus with 14 samples.

Results

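The smooth muscle contractile genes were 10 genes chosen by name: Acta2, Actg2, Myh11, Cnn1, Tagln, Smtn, Lmod1, Mylk, Synpo2 and Cald1. All 10 symbols were found once among the 55291 genes of the count tables. They were followed through bulk RNA-Seq of 14 esophageal samples from 9 wild type C57BL/6 mice. These were peeled epithelium from 5 aged mice (O1, O2, O3, OF5 and OM8) and 4 young mice (Y1, Y3, YF5 and YM4), and stroma from 3 aged mice (O1, O2 and O3) and 2 young mice (Y1 and Y3). Aged mice were 18 months or older and young mice 4 months or younger. The labels name no genetic alteration and no treatment. Sex was labelled for only 3 mice, all with epithelium alone. The peeled epithelium was a mechanically separated mucosal sheet rather than a sorted cell type.

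Smooth muscle shortens when myosin II slides along actin filaments. Calcium bound to calmodulin activates myosin light chain kinase, which phosphorylates the light chain of myosin and switches the motor on, while caldesmon and calponin hold the filaments back. The genes of this apparatus are known to be switched on together by serum response factor and its partner myocardin, which act at CArG boxes. In the mouse esophagus the outer muscle coat is largely striated, and smooth muscle lies in the muscularis mucosae at the base of the mucosa and in the walls of blood vessels.

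The sequences printed here are those to which the transcriptional control of these genes points. RefSeq promoter entries (GRCm38.p6) were matched for 7 of the 10 members: Acta2, Cald1, Cnn1, Lmod1, Mylk, Smtn and Synpo2. In the 250 bases before each start site a CArG box was searched as CC, then 6 bases, then GG, which reads the same way on both strands. With all 6 middle bases A or T, it was present in 1.47% of 32851 promoters and in 0 of the 7 members. With at least 5 of the 6 middle bases A or T, a form adopted after the strict search had found none, it was present in 8.59% of promoters and in 1 of the 7 members. This was Acta2, the smooth muscle alpha-actin gene, which held a pair of them. The first, in capitals, began 84 bases before the RefSeq start (chr19:34255438-34255467, minus strand), and the second began 34 bases before it (chr19:34255388-34255417, minus strand).
Acta2 box 1: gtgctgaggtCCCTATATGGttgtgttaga
Acta2 box 2: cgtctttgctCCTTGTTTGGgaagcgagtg
GENCODE M21 starts Acta2 further upstream, so that 217 of the 250 bases lay inside the gene in that annotation. Synpo2, which had the greatest layer difference of the 10 members, held no CArG box in its window (chr3:123236150-123236399, minus strand). Its window held the letters CTATTTATAG, the form of a MEF2 site, a sequence known from genes of striated and smooth muscle. These letters, shown in capitals, were searched on both strands after the window had been read, and occurred in 0.14% of the promoters and in 1 of the 7 members.
Synpo2 promoter: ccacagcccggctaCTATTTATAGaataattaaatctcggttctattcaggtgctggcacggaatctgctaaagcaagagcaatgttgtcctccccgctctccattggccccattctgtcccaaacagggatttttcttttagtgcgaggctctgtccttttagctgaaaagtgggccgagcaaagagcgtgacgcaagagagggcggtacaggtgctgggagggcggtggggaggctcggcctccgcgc

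Read depth differed between sets of samples. Epithelial samples from O1, O2, O3, Y1 and Y3 had 16477424 to 21867101 counts in total and stromal samples from the same mice 13257833 to 15644580. The other 4 epithelial samples (OF5, OM8, YF5, YM4) had 8217516 to 9399448. In these 4 63.9 to 73.9% of counts fell on a ribosomal RNA gene, and their 10 members together received 1225 to 3501 counts, against 19271 to 28054 in the other epithelial samples and 13987 to 80747 in the stroma. Levels are given as CPM, counts scaled to a common library size by TMM. A count of 3 corresponded to 0.707 to 1.25 CPM in these 4 samples and to 0.0872 to 0.175 CPM elsewhere. The layer labels matched their markers. The summed level of 5 squamous epithelial markers was 16359 to 52687 CPM in epithelium and 43.5 to 425 CPM in stroma, and that of 12 skeletal muscle markers was 169 to 1855 CPM in epithelium and 42353 to 76538 CPM in stroma.

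The first comparison asked whether the contractile genes were confined to the stroma, from which the epithelium had been peeled. They were not. In the peeled epithelium the 10 members summed to 510 to 1212 CPM (median 807) and in the stroma to 722 to 3317 CPM (median 1439), and the ranges overlapped. By contrast, the skeletal muscle markers were far apart between the layers, with all 12 lower in epithelium at log2 fold changes from -7.39 to -4.53. The summed members amounted to 0.275 to 5.85 times the summed skeletal muscle markers in epithelium and 0.0107 to 0.0621 times in stroma. CPM is relative to all counts of a sample. In these bulk samples, fewer smooth muscle cells, less RNA per cell and more RNA from other cells cannot be told apart.

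A total of 6 members were lower in epithelium than in stroma (edgeR, adjusted p under 0.05): Acta2, Smtn, Lmod1, Mylk, Synpo2 and Cald1. Of all 16791 genes tested, 30.1% were called lower in epithelium and 26.1% higher, and 0 of the 10 members were called higher, with either edgeR or DESeq2 (which called 26.4% of all genes higher) or at an unadjusted p under 0.05. The median log2 fold change of the members was -0.98, beside -0.05 over all genes tested. When the 4 shallow epithelial samples were left out, 6 members were again called lower, beside 9400 of 16713 genes in either direction. The calls of Acta2, Smtn and Mylk rested on aged mouse O2. Without it only Lmod1, Synpo2 and Cald1 were called, beside 8715 of 17100 genes in either direction. When the mouse entered the fit as a block, over the 5 mice that gave both layers, 4 members were called lower. Acta2 (log2 fold change -0.75, adjusted p = 0.0678) and Mylk (-0.76, adjusted p = 0.0864) were not. Of all 16713 genes tested in that fit, 8590 were called in either direction.

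**Figure D1:**
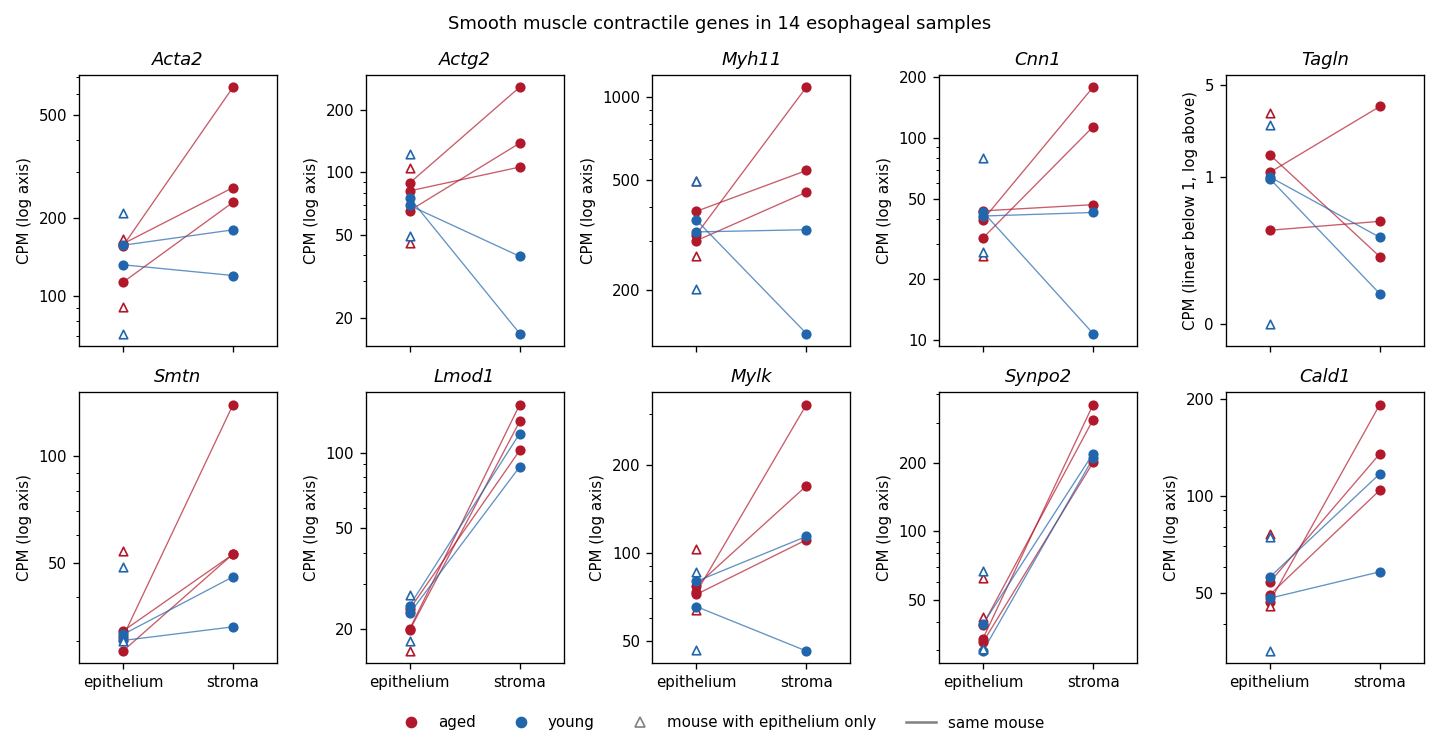
CPM of each member (vertical axis, log scale except that Tagln is linear below 1) in epithelium and stroma, red for aged and blue for young mice, with lines joining samples of the same mouse and open triangles for mice with epithelium only. Lmod1 and Synpo2 separate the layers in every sample, the other members overlap, and aged mouse O2 gives the highest stromal value for 9 of the 10 members.

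Lmod1 and Synpo2 were the 2 members whose epithelial and stromal samples did not overlap, with epithelium lower. Such separation was seen in 16.9% of all genes tested. Lmod1 encodes leiomodin, which nucleates actin filaments. Its level in epithelium ran from 16.3 to 27.3 CPM with a median of 23.0, whereas stroma held 155 CPM in O1, 133 in O2, 102 in O3, 87.8 in Y1 and 119 in Y3. Every stromal sample thus exceeded every epithelial one. The log2 fold change was -2.45 ± 0.16 (SE; adjusted p = 8.49e-11), or 5.46-fold lower in epithelium.

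Synpo2 encodes synaptopodin 2 (myopodin), an actin-bundling protein that is known from the dense bodies of smooth muscle and also from the Z-discs of striated muscle. Its epithelial level was 29.8 to 67.2 CPM (median 38.8), and its stromal level was 310 CPM in O1, 361 in O2, 201 in O3, 210 in Y1 and 220 in Y3. The stroma was higher throughout, in aged and in young mice alike. Synpo2 was 6.26-fold lower in epithelium (log2 fold change -2.65 ± 0.22, adjusted p = 2.68e-09). Lmod1, Synpo2 and Cald1 were called lower under all 18 alternative settings of this comparison.

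Cald1 encodes caldesmon, of which a heavy form is typical of smooth muscle and a light form is present in most cells. It stood at 32.9 to 75.8 CPM in epithelium (median 49.2) and at 135, 192, 104, 58.0 and 117 CPM in the stroma of O1, O2, O3, Y1 and Y3. Only the stroma of Y1 fell inside the epithelial range. The log2 fold change was -1.18 ± 0.23 (adjusted p = 0.000175).

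Acta2 ranged from 71.7 to 209 CPM in epithelium (median 156). Its stromal values were 230 CPM in O1, 639 in O2 and 262 in O3, and 120 in Y1 and 180 in Y3, so that the aged stroma lay above and the young stroma within the epithelial range. The log2 fold change was -1.04 ± 0.31 (adjusted p = 0.00784). Mylk, the myosin light chain kinase gene, showed the same arrangement, with 46.3 to 103 CPM in epithelium (median 73.2) and 170, 323 and 111 CPM in the stroma of O1, O2 and O3, although the stroma of Y3 at 114 CPM also exceeded the epithelium and that of Y1 at 46.1 CPM was below it. Its log2 fold change was -1.04 ± 0.30 (adjusted p = 0.00585). Smtn encodes smoothelin, a cytoskeletal protein of contractile smooth muscle cells. It stood at 28.2 to 54.1 CPM in epithelium (median 30.9) and at 53.0, 140, 52.9, 33.0 and 45.7 CPM in the stroma of O1, O2, O3, Y1 and Y3, with a log2 fold change of -0.89 ± 0.27 (adjusted p = 0.00747).

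The remaining 4 members were not called in either direction. Myh11, the smooth muscle myosin heavy chain and the most heavily counted member, was at 202 to 497 CPM in epithelium (median 325) and at 543 CPM in the stroma of O1, 1090 in O2, 453 in O3, 139 in Y1 and 331 in Y3. The epithelial range lay inside the stromal range. The log2 fold change was -0.55 ± 0.33 (adjusted p = 0.171), and without mouse O2 it was -0.06. Cnn1, which encodes calponin 1, was at 26.2 to 79.6 CPM in epithelium (median 41.2) and at 114, 179, 46.9, 10.8 and 42.9 CPM in the stroma of O1, O2, O3, Y1 and Y3, with a log2 fold change of -0.92 ± 0.45 (adjusted p = 0.0987).

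Actg2 encodes the gamma-actin of enteric smooth muscle. Its epithelial values were 45.7 to 122 CPM (median 75.4), and its stromal values were 138 CPM in O1, 256 in O2 and 106 in O3 but 16.9 in Y1 and 39.6 in Y3. The young stroma thus lay below every epithelial sample. Over all samples the log2 fold change was -0.51 ± 0.45 (adjusted p = 0.344), and without mouse O2 it turned to 0.02.

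Tagln encodes transgelin (SM22), which is abundant in smooth muscle, yet its rows held only 0 to 84 counts per sample. Of its 1988 exon bases, 67.9% overlapped other annotated genes, namely the antisense gene Gm48529 (62.4%) and Pcsk7 (5.43%), and Gm48529 itself received 0 to 44 counts. How overlapping reads were counted is not given in the sources used here, and the part of the overlap in the low counts was not tested. Tagln is therefore reported as uncertain throughout. It was at 0 to 3.06 CPM in epithelium and 0.206 to 3.45 CPM in stroma, with a log2 fold change of 0.22 ± 0.67 (adjusted p = 0.795) whose sign changed under 4 alternatives. The exons of Smtn (16.3%) and Mylk (6.85%) overlapped other genes to a lesser degree, and those of the other 7 members did not. Stretches of 50 bases shared with other genes made up 0.326% of Acta2 and 0.34% of Myh11.

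Within the 5 mice that gave both layers, the direction of the layer difference varied between animals for some members. In the 3 aged mice, 9 members were lower in epithelium in every animal. In the 2 young mice 4 members (Smtn, Lmod1, Synpo2 and Cald1) were lower in both, and 2 (Actg2 and Tagln) were higher in both. Actg2 in epithelium was 47.6%, 34.7% and 76.8% of stroma in O1, O2 and O3, and 447% and 175% in Y1 and Y3. Young mouse Y1 was the extreme case, with Myh11 in epithelium at 258% of stroma and Cnn1 at 399%. Lmod1 was 12.9 to 26.1% and Synpo2 9.37 to 17.8% of stroma in the 5 mice.

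**Figure D2:**
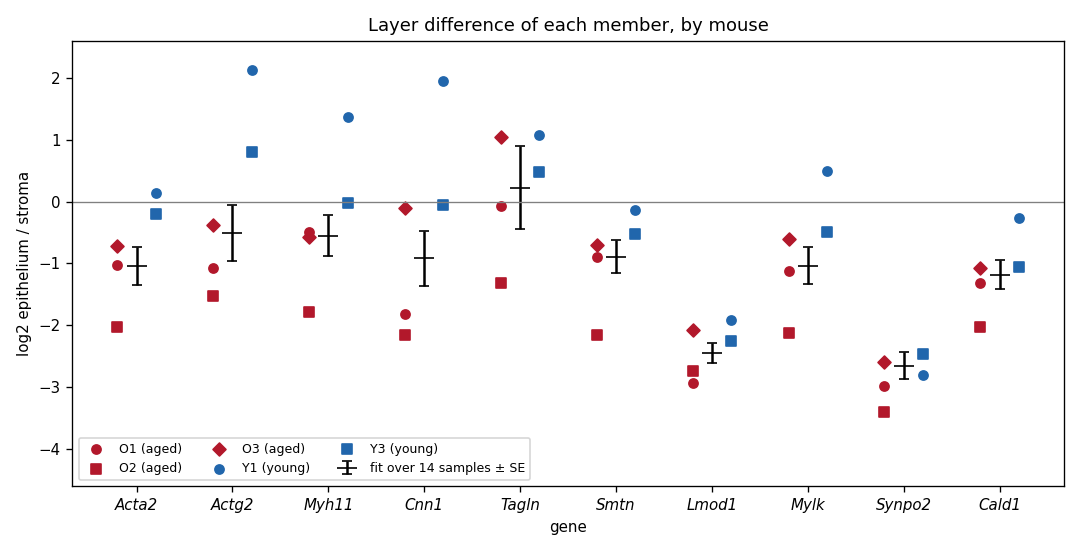
Log2 ratio of epithelium to stroma (vertical axis) for each member in the 5 mice with both layers, red for aged and blue for young, with the estimate over 14 samples and its SE in black. Lmod1 and Synpo2 lie between -3.40 and -1.91 in all 5 mice, whereas Actg2 lies below 0 in the 3 aged mice and above 0 in the 2 young mice.

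The make-up of the summed member counts also differed between the layers. Each member was expressed as its share of the summed counts of the 10 members, a scale that does not depend on the level of the sum. Shares were compared by a two-sided exact permutation test of the mean log2 share. The permutation ran over all 14 samples and took no account of the mice that gave both layers. Since shares sum to 100%, a rise of one lowers the others. The skeletal muscle markers, at 42353 CPM or more in each stromal sample, differed between the layers too, and the part of Synpo2 reads from striated muscle in these shares was not tested. Of 10 shares compared, 5 differed at an unadjusted exact p under 0.05. Myh11 took 41.6% ± 3.07 (SD, n = 9) of the counts in epithelium and 28.1% ± 5.35 (n = 5) in stroma, and Actg2 took 9.26% ± 1.17 and 5.64% ± 2.61. Synpo2 took 5.03% ± 0.983 in epithelium and 17.8% ± 6.93 in stroma, and Lmod1 took 2.70% ± 0.438 and 8.30% ± 3.05.

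For Myh11, Lmod1 and Synpo2 no epithelial sample overlapped a stromal one, and the exact p was 0.0005, the smallest these 14 samples can give. The exact p was 0.002 for Actg2 (higher share in epithelium) and 0.032 for Cald1 (6.43% in epithelium, 7.61% in stroma). In each of the 5 mice with both layers, the shares of Myh11 and Actg2 were higher in epithelium and those of Lmod1 and Synpo2 were higher in stroma. Acta2 held 16.5% ± 2.42 in epithelium and 16.3% ± 2.71 in stroma (log2 difference 0.03, exact p = 0.838), and Mylk 8.98% and 8.48% (exact p = 0.411). Smtn (exact p = 0.276), Cnn1 (0.12) and Tagln (0.0589) did not pass either, although Tagln did with 2 in place of 0.5 added to each count (exact p = 0.011) or without YM4 (0.00389), and Cnn1 did without O1 (0.0202). The Cald1 result was lost when any one of O1, O3, Y1, Y3 or YM4 was left out, with an exact p of up to 0.125.

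**Figure D3:**
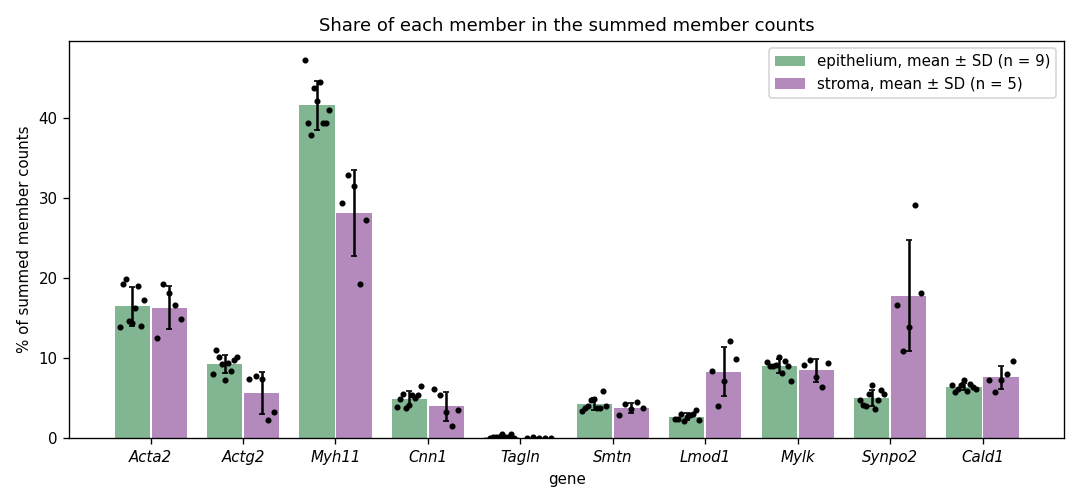
Share of each member in the summed counts of the 10 members (percent, vertical axis) in epithelium (green, n = 9) and stroma (purple, n = 5), with bars for the mean, error bars for the SD and points for samples. Myh11 and Actg2 take more of the sum in epithelium, 41.6% and 9.26% against 28.1% and 5.64%, and Lmod1 and Synpo2 take more in stroma.

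Levels between genes were compared only as CPM per kilobase of merged exons, a scale on which poly(A) selection and unused exons can lower long genes. In epithelium the order was Acta2 (63.5 ± 19.2 CPM per kilobase, SD, n = 9), Actg2 (50.1 ± 15.8), Myh11 (46.1 ± 12.9), Cnn1 (15.3 ± 5.76), Smtn (8.03 ± 2.14), Mylk (6.58 ± 1.4), Lmod1 (5.54 ± 0.914), Cald1 (4.45 ± 1.15), Synpo2 (3.19 ± 1.05) and Tagln (0.661 ± 0.471). The ranges of all neighbours but Synpo2 and Tagln overlapped. Within samples Acta2 exceeded Actg2 in 9 of 9, but Actg2 exceeded Myh11 in only 7 of 9. In stroma Acta2 (130.0 ± 93.1, n = 5), Actg2 (71.5 ± 60.8) and Myh11 (67.3 ± 47.0) again led, and Lmod1 (30.3 ± 6.62) and Synpo2 (19.9 ± 5.44) stood at places 4 and 6 in place of 7 and 9, with the ranges of all neighbours but Cald1 and Tagln overlapping. With the CPM of Tagln divided by its 639 bases that overlap no other gene in place of all its exon bases, as if every read lay there, the values were 2.06 CPM per kilobase in epithelium and 1.69 in stroma.

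Paralogs of the members that serve striated muscle or non-muscle cells went both ways. Of 17 paralogs tested, 12 were lower and 5 higher in epithelium. Striated Acta1, the skeletal alpha-actin, was lower by a log2 fold change of -6.62, and Lmod2, a striated leiomodin, by -6.6. The cytoplasmic actin genes were higher in epithelium, Actb by 1.20 and Actg1 by 2.61 on the log2 scale, as was the non-muscle myosin gene Myh9 by 0.79. Non-muscle paralogs did not all rise, since Myh10, a further non-muscle myosin gene (-1.22), and the calponin gene Cnn3 (-0.49) were lower in epithelium.

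Among 29 other genes of smooth muscle, 17 were lower in epithelium, 1 was higher and 11 were not called, with a median log2 fold change of -1.30. Of the 4 regulators of transcription, Srf (15.4 CPM in epithelium and 49.4 in stroma) and Myocd (3.53 and 8.77) were lower in epithelium, at log2 fold changes of -1.66 ± 0.18 (adjusted p = 1.05e-07) and -1.30 ± 0.34 (adjusted p = 0.00251). Their partners Mrtfa (0.38) and Mrtfb (-0.02) were not called. Of 7 genes of the light chains and their phosphorylation, Ppp1r12b (-2.96), which encodes a subunit of myosin phosphatase, and Rock2 (-1.64), a kinase that inhibits this phosphatase, were lower, and Rock1 (0.43) was higher. The stroma also held the skeletal muscle markers, and the part of striated muscle in these differences was not tested. The regulatory light chain gene Myl9 was not called, at -0.90 ± 0.40 (adjusted p = 0.0692).

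Genes for relaxation through nitric oxide were mostly lower in epithelium, with 3 of 4 called. These were Gucy1a1 (-1.30) and Gucy1b1 (-2.29), the subunits of soluble guanylate cyclase, and Prkg1 (-1.73), the cGMP-dependent kinase, while Pde5a (0.53), which degrades cGMP, was not called. Of 6 channels and receptors 4 were lower. The M2 muscarinic receptor gene Chrm2 averaged 0.0803 CPM in epithelium and 15.1 CPM in stroma, with its epithelial mean under the level of 3 counts. Of 8 genes of the cytoskeleton and adhesion, 6 were lower, led by Des (-4.53), Tpm1 (-4.19) and Tpm2 (-3.85), all of which striated muscle also expresses. Flna (-0.08), the filamin A gene, was not called.

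The second comparison asked whether the members differed with age in the peeled epithelium. None did: 0 of 10 members were called, beside 2 of all 15859 genes tested (0.0126%). At an unadjusted p under 0.05 the count of members was also 0, against 3.21% of all genes, and DESeq2 called 0 members and 0.177% of all genes. The aged and young samples overlapped for all 10 members, whereas they separated for 1.27% of genes. Log2 fold changes of aged over young ran from -0.37 ± 0.31 for Cnn1 to 0.28 ± 0.50 for Tagln, with a median of 0.01, and 8 of the 10 members changed sign under at least 1 of 18 alternatives.

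Acta2 was at 91.0 to 166 CPM in the 5 aged and 71.7 to 209 CPM in the 4 young epithelial samples, and Myh11 at 265 to 496 and 202 to 497 CPM. In both cases the young samples spanned the aged ones. Myh11 averaged 353 ± 90.8 CPM (SD, n = 5) in aged and 346 ± 121 CPM (n = 4) in young epithelium. Smtn had a log2 fold change of 0.0 ± 0.16. Of 28 other smooth muscle genes tested in epithelium, 0 were called with age by edgeR or DESeq2, and 1 had an unadjusted p under 0.05. The summed skeletal muscle markers ranged from 169 to 1145 CPM in aged and from 231 to 1855 CPM in young epithelium.

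The third comparison set aged against young stroma. All 10 members had higher mean levels in aged stroma, with log2 fold changes from 0.32 ± 0.26 for Lmod1 to 2.56 ± 0.48 for Actg2 and a median of 1.33, beside -0.01 over all genes. None was called by edgeR, which called 0 of 21323 genes (0.0%) with 3 aged and 2 young samples. At an unadjusted p under 0.05, 6 of 10 members were higher in aged stroma, against 1.0% of all genes. The aged samples lay above the young ones for 5 members, against 6.57% of all genes. DESeq2 called 2 of all genes (0.00938%), of which 1 was a member, Actg2.

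Actg2 in stroma was 138, 256 and 106 CPM in aged O1, O2 and O3, and 16.9 and 39.6 CPM in young Y1 and Y3 (unadjusted p = 0.000358, edgeR adjusted p = 1.0). Each aged value exceeded both young values. Myh11 was 543, 1090 and 453 CPM in aged and 139 and 331 CPM in young stroma (log2 fold change 1.56 ± 0.47). Cnn1 was 114, 179 and 46.9 CPM in aged and 10.8 and 42.9 CPM in young stroma (2.06 ± 0.64), so that O3 and Y3 nearly coincided. Acta2 (1.33 ± 0.45), Smtn (1.06 ± 0.44) and Mylk (1.33 ± 0.49) had intermediate values. Lmod1 and Synpo2, the members with the greatest layer difference, had the smallest age differences in stroma, with Synpo2 at 0.43 ± 0.28.

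Single mice weighed on these values. O2 gave the highest stromal level and Y1 the lowest level for most members, so that the median log2 fold change of the members fell from 1.33 to 0.58 without mouse O2. Leaving out either young mouse left 1 young sample, which was then assumed to vary as the aged samples did. Under that assumption 4 members (Actg2, Myh11, Cnn1 and Mylk) were among the 7 of 24922 genes called without Y3, and Actg2 (log2 fold change 2.05, adjusted p = 0.00289) was the only member among the 13 of 25900 genes called without Y1. The summed epithelial markers in stroma were 46.6 CPM in O1, 425 in O2 and 211 in O3, and 71.0 in Y1 and 43.5 in Y3. They were highest in O2, as the members were, and their part in the age difference was not tested. The summed skeletal muscle markers overlapped between aged (42353 to 76538 CPM) and young stroma (53190 to 67380 CPM).

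**Figure D4:**
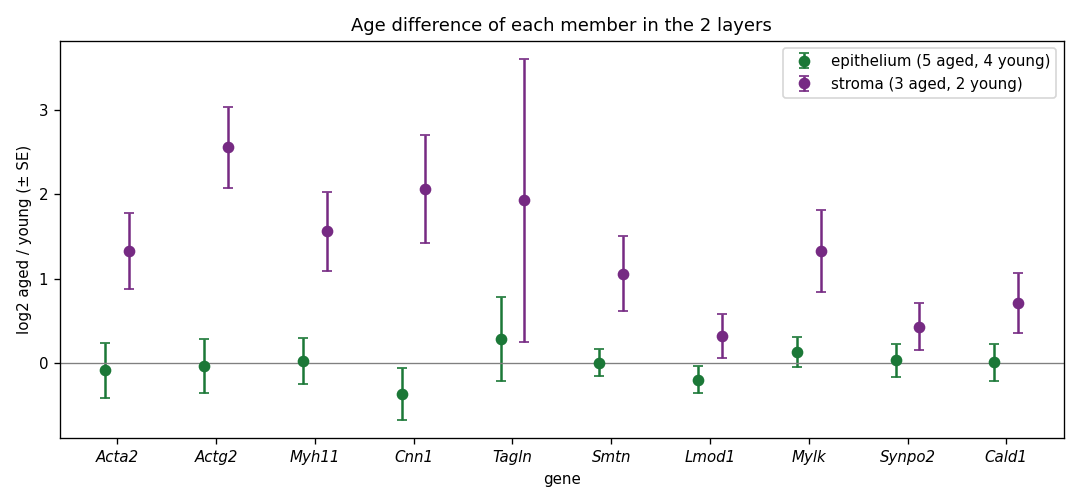
Log2 fold change of aged over young (vertical axis, with SE) for each member in epithelium (green, 5 aged and 4 young samples) and in stroma (purple, 3 aged and 2 young samples). Epithelial values lie between -0.37 and 0.28, and stromal values between 0.32 and 2.56.

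Among the 29 other smooth muscle genes in stroma, 0 were called with age by edgeR or DESeq2, 3 had an unadjusted p under 0.05, and the median log2 fold change was 0.47. The groups did not overlap, in either direction, for 6 of the 29. These included Myl9 (1.81 ± 0.63), Flna (1.42 ± 0.41) and Myocd (0.97 ± 0.50), all higher in aged stroma. Separation with aged stroma higher was seen in 6.57% of all genes. The share separated in either direction is not given here, so the count of 6 has no matching background. Srf (-0.06 ± 0.28), Des (0.11 ± 0.29), Tpm1 (0.15 ± 0.27) and Tpm2 (0.10 ± 0.27) had values close to 0.

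The difference between the age effects of the layers was tested as an interaction of age and layer in the 5 mice with both layers. Samples of the same mouse entered this fit as independent, without a term for the mouse. All 10 members had a more negative age difference in epithelium than in stroma, from -0.40 ± 0.37 for Synpo2 to -2.43 ± 0.57 for Actg2 on the log2 scale, with a median of -1.32 beside 0.01 over all genes. None was called (0.0% of 22771 genes), with the adjusted p of Actg2 at 0.71. At an unadjusted p under 0.05, 4 members passed in this direction, against 1.14% of all genes. DESeq2 called 62 genes (0.272%), among them 1 member, Actg2 (-2.51, adjusted p = 0.0338). With the mouse as a block, the interaction of Actg2 was -2.46 (edgeR adjusted p = 0.775). The interaction and the stromal comparison share the 5 stromal samples.

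The last comparison asked whether the members varied together in the 9 epithelial samples. Over all 9 they did, with Tagln as the exception, but the common variation lay in the 4 shallow samples. In O1, O2, O3, Y1 and Y3 alone the median pairwise Pearson's r of the members was 0.07. Log2 CPM were centred within the numbered mice (O1, O2, O3, Y1 and Y3) and within OF5, OM8, YF5 and YM4, since these sets differed in depth. Over the 36 pairs of the other 9 members Pearson's r was 0.63 to 0.98 with a median of 0.87, and 27 pairs reached 0.8. Among pairs of genes whose average log2 CPM reached 4 the median r was 0.07, and 3.71% reached 0.8. The highest pair was Synpo2 with Cald1 (0.98), followed by Mylk with Cald1 (0.97), and the lowest was Cnn1 with Mylk (0.63). Tagln had an r of -0.88 to -0.65 with the other members, at 0 to 13 counts in the shallow samples.

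**Figure D5:**
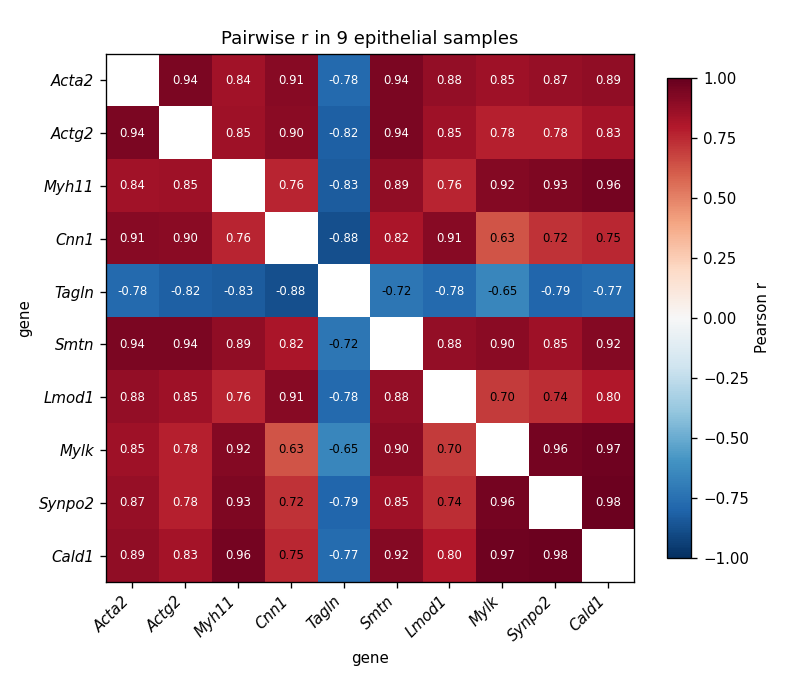
Pearson's r between members over 9 epithelial samples, from log2 CPM centred within the 2 sets of mice, with red for positive and blue for negative values. All 36 pairs without Tagln are positive (0.63 to 0.98) and all 9 pairs with Tagln are negative.

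Among the 4 shallow samples, OF5 and YM4 were high and OM8 and YF5 low for each of the 9 members, an order noticed in these values and held by 12.8% of all genes tested in epithelium. Myh11 was 496 CPM in OF5 and 497 in YM4 but 265 in OM8 and 202 in YF5. Acta2 was 166 and 209 CPM against 91.0 and 71.7, and Lmod1 was 24.1 and 27.3 CPM against 16.3 and 17.9. Each pair held 1 aged and 1 young mouse. The SD of log2 CPM over these 4 samples was 0.34 to 0.74 for the 9 members.

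In the 5 numbered mice, by contrast, the members varied less. The SD of log2 CPM there was 0.07 to 0.21, and 20 of the 36 pairs had an r above 0. The median r over all 45 pairs was 0.85 in the 9 samples and 0.07 in the 5 numbered mice alone. For the members other than Tagln, counting error alone would give an SD of 0.01 to 0.06 in the numbered mice. In the shallow samples it would give 0.05 to 0.18. Ribosomal RNA took 71.3% of counts in OF5 and 71.7% in YM4, beside 63.9% in OM8 and 73.9% in YF5. Total counts were 9399448 and 8217516, beside 8406735 and 9387380. Between the 2 sets, library depth, the share of ribosomal RNA and the set of mice cannot be told apart. Their part in the order within the shallow samples was not tested.

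Myh11 was compared with the other 9 members and with 3 marker genes, 12 relations in all, by two-sided exact permutation within the 2 sets of mice (2880 permutations, n = 9). Pearson's r was 0.96 with Cald1 (exact p = 0.0215, adjusted over the 12 relations 0.103; Spearman's rho 0.88, exact p = 0.0903, adjusted 0.328) and 0.93 with Synpo2 (exact p = 0.0257, adjusted 0.103; rho 0.87, exact p = 0.111, adjusted 0.328). With Acta1, the skeletal actin gene, r was -0.80 (exact p = 0.0222, adjusted 0.103; rho -0.58, exact p = 0.164, adjusted 0.328). With YF5 and YM4, the samples farthest from the median, left out, r was 0.90, 0.78 and -0.58. None of the 12 passed after adjustment for Pearson's r.

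Myh11 against the fibroblast gene Dcn gave an r of 0.43 (exact p = 0.231, adjusted 0.307; rho 0.47, exact p = 0.208, adjusted 0.328), which was 0.06 without YF5 and YM4. Against the pericyte gene Rgs5 r was 0.77 (exact p = 0.10, adjusted 0.203; rho 0.67, exact p = 0.266, adjusted 0.328), and 0.54 without them. Against Tagln r was -0.83 (exact p = 0.101, adjusted 0.203) and rho -0.97 (exact p = 0.00347, adjusted 0.0417), with the counting limit of Tagln as above. The other 6 relations, with Acta2, Actg2, Cnn1, Smtn, Lmod1 and Mylk, had r from 0.76 to 0.92, with exact p from 0.0569 to 0.311.

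The genes outside the members most like their mean in the 9 epithelial samples included Sdcbp (r = 0.99), Myl9 (0.98), Ltv1, Utp11, Enpp2 and Clcn5 (each 0.97), and Pole3, Psme1 and Herpud2 (each 0.96), a description over the same 9 samples. Myl9, the smooth muscle regulatory light chain gene, was 52.9 ± 14.8 CPM (SD, n = 9) in epithelium and 98.4 ± 94.0 CPM (n = 5) in stroma. It was the only one of these named genes on the list of other smooth muscle genes. Clcn5 (log2 fold change 2.36 ± 0.23) and Pole3 (1.92 ± 0.27) were higher in epithelium than in stroma.

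Markers of other cells of the lamina propria were present in every epithelial sample. The 6 fibroblast markers summed to 280 to 632 CPM in epithelium and 415 to 1031 CPM in stroma, the 6 pericyte markers to at most 147 CPM in epithelium and 199 CPM in stroma, and the 5 endothelial markers to at most 30.9 and 135 CPM. All 17 of these genes had counts in every epithelial sample. Of the fibroblast markers 3 of 6 were lower in epithelium, at a median log2 fold change of -0.61, and of the endothelial markers 5 of 5 were, at -1.83. The pericyte markers went both ways, with 4 lower and 1 higher in epithelium. The latter was Notch3, at 64.1 CPM in epithelium and 6.59 CPM in stroma, which made up most of the epithelial sum of that list. Their part in the levels of the contractile genes was not tested.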

How the data were processed

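Bulk RNA-Seq of 9 epithelial and 5 stromal samples was used, and no sample was left out. For each sample the authors deposited whole-number read counts per gene, without normalization. Per the labels, mRNA was enriched with oligo(dT) beads before library preparation. Per the study's methods, reads were aligned to GRCm38.p6 with Rsubread and counted with featureCounts, and bcl2fastq is named in the submitters' processing notes. The settings for strand and overlapping genes are not given in the sources used here. Poly(A) selection and overlap can lower counts of single genes.

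Layer, age and mouse came from the labels. Whether samples of a group were processed on separate days is not labelled, so p-values measure the spread between these mice. Counts were scaled by TMM and tested with edgeR 4.0.16 in R 4.3.3 (filterByExpr with a minimum count of 10, robust quasi-likelihood fit, Benjamini-Hochberg over all genes tested, threshold 0.05). The layer fit used 14 samples, the age fit in epithelium 9 with the kind of mouse code (numbered or lettered) as covariate, the age fit in stroma 5, and the interaction 10. DESeq2 1.42.0, other scalings, filters, mouse as a block and the omission of single mice were alternatives. The fits were also run on simulated data with 200 genes changed. Apart from those genes all simulated samples shared a common mean profile, so differences in composition between the layers were not covered. Shares and single relations were tested by exact permutation with scipy; 0.5 was added to CPM before log2 and to counts before shares. Floors (3 counts) cover counting error only, whereas each SE or SD given with ± includes the spread between samples. Same-mouse samples were matched by their shared animal code, and their deviations from the group means correlated at r = 0.0422 to 0.141. The main layer and interaction fits held no term for the mouse, which entered only as a block among the alternatives.

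Gene positions and exons were from GENCODE M21, and promoters from RefSeq. The named genes were the 10 members, up to 4 genes per role from lists of other smooth muscle genes, paralogs, cell type markers and the 10 most alike genes (average log2 CPM of at least 3), of which 1 is not reported here. The members and lists were chosen with earlier results of these data known.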

Additional observations from a re-analysis of the deposited data

Results flagged for a closer look

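Actg2 differed in direction between age groups in the comparison of the layers: epithelium was below stroma in all 3 aged mice (mean log2 ratio -0.99) and above it in both young mice (1.46). The interaction of age and layer was -2.43 on the log2 scale, with an edgeR adjusted p of 0.71, and its cause was not tested.

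Smtn held a single high sample in both groups of epithelium. It was 54.1 CPM in OF5 against 28.2 to 32.1 CPM in the other aged samples, a gap of 0.799 of the range, and 48.8 CPM in YM4 against up to 31.4 CPM in the other young samples, a gap of 0.904. These were 2 of 20 groups examined, which share samples and are not independent. How many such gaps chance would give was not tested. The pattern was not particular to Smtn, since OF5 and YM4 exceeded OM8 and YF5 for every other member but Tagln. OF5 and YM4 are shallow samples, and the part of depth was not tested.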

How the results depend on the processing

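Lmod1, Synpo2 and Cald1 were called lower in epithelium in all 18 alternatives, and 0 members were called higher in any. The number of members called lower was 3 to 8 when single mice were left out. It was 3 without O2, where 8715 of 17100 genes were called in either direction, and 8 without Y1, where 8395 of 17036 were. Using library totals only shifted the median log2 fold change of all genes between the layers from -0.05 to -0.58 and that of the members to -1.61. Under that setting 7 members were called, beside 5699 of 16791 genes in either direction. The replicate block by mouse gave 4 calls, beside 8590 of 16713 genes in either direction. It changed no other call than those of Acta2 and Mylk. With no filter on low counts 5 members were called, beside 14026 of 49574 genes in either direction. Acta2 was not among these members (-0.85, edgeR adjusted p = 0.0959). With at least 10 counts in every sample 8 members were called, with Myh11 and Cnn1 added, beside 4316 of 6711 genes. The log2 fold change of Actg2 was -0.78 to 0.02 when single mice were left out and turned without O2, and that of Tagln, -0.03 to 1.39, turned with library totals only (-0.51), in the 10 samples of 5 mice without a block (-0.04), without O3 (-0.03) and without OM8 (-0.02). With age in stroma 1 member was called with DESeq2, beside 2 of 21323 genes, and 4 with no filter on low counts, beside 26 of 45528 genes. Without O1, O2 or O3 the number was 0, as it was for all genes. Without Y1 or Y3, which left 1 young sample, the median log2 fold change of the members was 0.94 and 1.87. In the interaction 1 member was called with DESeq2, beside 62 of 22771 genes. There the number was 0 with the mouse as a block or without O1, O2 or O3, again as for all genes. With age in epithelium 0 members were called in any of 18 alternatives, beside at most 36 of 46496 genes, with no filter on low counts. The median pairwise r in epithelium was 0.78 without centring, 0.07 in the numbered mice and 0.77 to 0.87 when single mice were left out. Of the 12 relations of Myh11, 3 had an unadjusted exact p under 0.05, 7 with library totals only and 1 with Spearman's rho (chosen after seeing the data). The share of Acta2 was -0.04 to 0.06 on the log2 scale when single mice were left out, turning without O1 and without Y3 (-0.03), and 4 to 5 shares passed when single mice were left out and 6 with 2 added to each count. The causes were not tested.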
